A study of Heliconius erato cyrbia and Heliconius erato demophoon with 32 samples.

Results

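The loci described here were expressed, by group mean, in the developing wings of Heliconius erato demophoon at both stages and in both wing regions. They were nearly absent from the wings of Heliconius erato cyrbia, and 46 of them were not above 1 CPM in all 8 demophoon animals. The loci were selected on their own levels in these libraries. A locus was included when its mean level was at least 2 CPM (the count of a locus divided by the library total and scaled to 1000000) in each of the 4 demophoon groups and below 0.2 CPM in each of the 4 cyrbia groups. Of 24118 loci in the count table, 75 met both limits. The subspecies difference is therefore what chose them, and it is described without a test.

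RNA was sequenced from pupal wings of 16 animals, 8 of each subspecies, from captive populations fed on Passiflora biflora. In each subspecies 4 animals were at 50% and 4 at 70% of pupal development, and each animal gave a main wing library (the forewing with the posterior hindwing) and an anterior hindwing library (the androconial region), which makes 8 groups of 4 libraries. The demophoon animals at 50% were the females 5, 6 and 7 and the male 8, and those at 70% were the females 13, 14 and 16 and the male 15. The cyrbia animals were males 1 and 4 and females 2 and 3 at 50%, and males 9, 10, 11 and 12 at 70%, so that sex and group were not balanced.

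These subspecies differ in structural colour. The scales of cyrbia wings carry closely spaced ridges whose overlapping layers (lamellae) reflect blue light, whereas demophoon wings lack this iridescence. The ridges form during pupal life while the scale cell lays down its cuticle. Loci in this table were assembled from the reads as well as taken from gene models, so a locus can be a coding gene, part of one, a non-coding transcript or a copy of a mobile element. A read is counted only if it aligns to the reference, and so a locus that is not transcribed and a locus whose sequence is missing or diverged in one subspecies give the same low count and cannot be told apart here.

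Library totals ran from 9330883 to 68986011 counts. The shallowest was the main wing library of animal 6, where 3 counts equal 0.322 CPM, against 0.0435 CPM in the deepest, the anterior hindwing of animal 14. Loci without a gene model carry no name, and 0 locus or model IDs matched the 14137 genes of the reference table at hand, so no function is given for any locus and the wing tissue could not be checked against marker genes. A fall in the number of cells that express a locus and a fall in RNA per cell cannot be told apart in these pooled tissues.

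In demophoon the 75 loci together made up 452 to 1015 CPM per library, and in cyrbia 2.59 to 5.65 CPM. Between 65 and 74 of them had at least 1 count in any 1 demophoon library, against 21 to 44 in a cyrbia library. No locus passed 1 CPM in any cyrbia library, and the highest single value was 0.540 CPM. Summed over the 16 cyrbia libraries the counts of a locus ran from 0 to 104, with a median of 25. In the heatmap of all libraries the cyrbia columns are almost uniformly dark, while the demophoon columns are broken up by dark blocks that follow single animals.

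**Figure D1:**
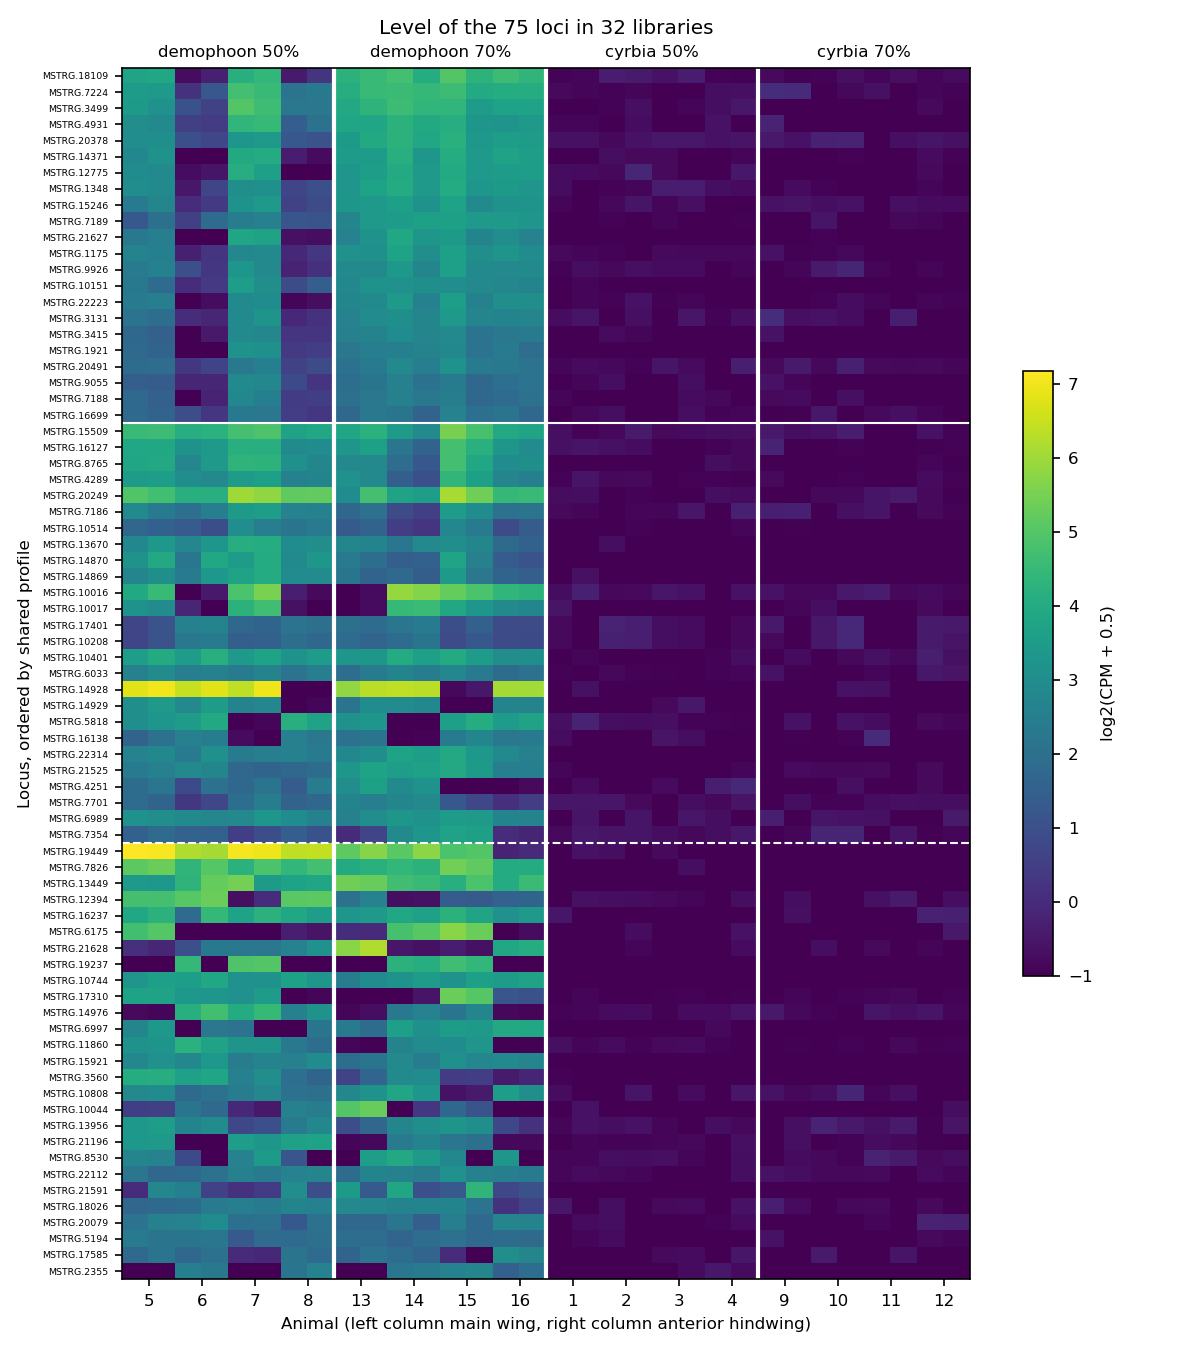
Level of each of the 75 loci (rows, log2 of CPM plus 0.5) in each of 32 libraries (columns, paired by animal and grouped by subspecies and stage). Loci above the solid line form the largest set with a shared profile, those down to the dashed line the 11 smaller sets, and those below it belong to no set. The cyrbia libraries stay at or below 0.540 CPM.

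For 8 loci (MSTRG.13449, MSTRG.10744, MSTRG.19237, MSTRG.14870, MSTRG.22314, MSTRG.15921, MSTRG.21591 and MSTRG.1921) no count was found in any of the 16 cyrbia libraries. Against a floor of 3 counts in each library their demophoon means were at least 41.2-fold higher (MSTRG.1921) to at least 241-fold higher (MSTRG.13449). A further 4 loci had 1 to 3 counts in all of cyrbia. The other 63 had more, up to 104 counts. Their ratio of demophoon to cyrbia mean CPM ran from 19.2 (MSTRG.10208) to 3536 (MSTRG.7826), with a median of 135. These ratios use the cyrbia means as they are and not the floor, so they are not on the scale of the bounds above, and that of MSTRG.7826 rests on 5 counts in 1 cyrbia library, with 15 libraries at 0. In 43 loci every demophoon library stood above every cyrbia library, and in 32 the libraries overlapped. Over all 23078 loci with a count this separation was found in 1.2%, a figure given for scale, since the limits of the rule set this difference. Of the 32 loci that overlapped, 21 were below 0.2 CPM in both libraries of at least 1 demophoon animal. In the other 11 no animal was that low in both libraries, but at least 1 demophoon library did not exceed the highest cyrbia library. MSTRG.3131, for example, had 0.426 CPM in its lowest demophoon and 0.540 CPM in its highest cyrbia library. More than 1 demophoon library could be involved, as in MSTRG.8530, with 0 CPM in several of them.

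With the limits exchanged, 31 loci were expressed in all cyrbia groups and near absent in all demophoon groups. As a share of the loci at 2 CPM or more in all groups of the expressing subspecies, the 75 loci were 0.902% of 8319 and the 31 were 0.385% of 8046. Loci near the limits show how far the rule decides membership. The lowest demophoon group means inside were 2.01 CPM (MSTRG.7354), 2.05 CPM (MSTRG.16699) and 2.09 CPM (MSTRG.12394), and just outside stood MSTRG.16916, MSTRG.2871 and MSTRG.3465 at 2.00, 1.98 and 1.96 CPM. The highest cyrbia group means inside were 0.198 CPM (MSTRG.13956), 0.197 CPM (MSTRG.20378) and 0.181 CPM (MSTRG.7224), against 0.203, 0.206 and 0.212 CPM just outside (MSTRG.13737, MSTRG.18486 and MSTRG.16344).

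Few of the loci overlapped a gene model. Of the 75 loci, 14 (18.7%) carried the ID of a gene model and 61 did not, whereas 80.2% of the 8319 loci expressed in demophoon and 54.1% of all loci carried one. Among the loci expressed in demophoon the 75 were 0.210% of those with a model and 3.71% of those without. Of the 14, 12 carried models of the main prediction set (evm) and MSTRG.19449 and MSTRG.5194 models of another series (novel_gene_235 and novel_gene_29). The 31 loci of the opposite pattern also had few models (10 loci, 32.3%).

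The 75 loci were mostly of modest level. Mean levels over the 16 demophoon libraries ran from 2.58 to 67.8 CPM with a median of 6.51 CPM, against a median of 17.3 CPM for the other 8244 loci expressed in demophoon. There were 55 loci below 10 CPM, 14 between 10 and 20 CPM and 6 above 20 CPM. Highest among them were MSTRG.19449 on chromosome 19, MSTRG.14928 on chromosome 15 (3 gene models), MSTRG.20249 on chromosome 19, MSTRG.7826 on chromosome 8, MSTRG.13449 on chromosome 13 and MSTRG.10016 on chromosome 10, at 67.8, 67.4, 30.9, 25.1, 23.1 and 20.5 CPM.

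MSTRG.19449 (novel_gene_235) was a locus with 1 animal apart. In the main wing it stood at 144, 72.8, 135 and 83.0 CPM in animals 5, 6, 7 and 8 at 50%, and at 35.3, 33.8, 28.4 and 0.388 CPM in animals 13, 14, 15 and 16 at 70%. The anterior hindwing of the same animals gave 137, 66.6, 125 and 86.1 CPM, then 51.1, 53.7, 31.6 and 0.514 CPM. The stages did not overlap in either region, and animal 16 was near the cyrbia range of 0 to 0.164 CPM in both of its libraries. The stage difference in the main wing missed the threshold (log2 fold change −2.0, SE 0.87, edgeR FDR 0.112).

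MSTRG.7826 (evm.TU.Herato0821.89) was present in every animal. Its main wing levels were 34.0, 19.8, 18.1 and 20.8 CPM at 50% (animals 5 to 8) and 15.5, 20.7, 43.2 and 15.7 CPM at 70% (animals 13 to 16). In the anterior hindwing they were 40.0, 32.1, 28.6 and 25.9 CPM, then 17.6, 18.6, 35.8 and 16.0 CPM. Animals 5 and 15 were the highest of their stage in both regions, the stages overlapped, and the 16 cyrbia libraries held 5 counts in all.

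MSTRG.20249 (evm.TU.Herato1910.180) also had counts in every demophoon animal but varied widely among them. The main wing values were 30.6, 16.8, 63.6 and 35.5 CPM at 50% and 7.41, 12.6, 68.3 and 21.2 CPM at 70%. In the anterior hindwing it stood at 25.8, 16.9, 56.4 and 36.7 CPM, then at 26.7, 11.5, 42.3 and 22.2 CPM. Animals 7 and 15 were high and animals 6 and 14 low in both regions. MSTRG.13449, without a gene model and without a count in cyrbia, ran from 9.69 to 43.7 CPM over the 16 demophoon libraries, and its 2 libraries differed most in animal 7, at 43.7 CPM in the main wing and 10.4 CPM in the anterior hindwing.

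Presence was not uniform among demophoon animals. Taking a mean above 1 CPM over the 2 libraries of an animal as presence, 29 loci were present in all 8 animals, 13 in 7, 23 in 6, 7 in 5, 2 in 4 and 1 in 3. There were 21 loci (28%) below 0.2 CPM in both libraries of at least 1 demophoon animal, and 14 of these had no count at all in both. Of the 21, 6 carried a gene model. Of the other 8244 loci expressed in demophoon, 0.898% fell below 0.2 CPM in both libraries of an animal. Between 53 (animal 6) and 70 (animal 5) of the loci were present in a given animal, and in no cyrbia animal was any present. The 2 groups of loci differ in level, in the share with a gene model and in how they were chosen, and no test was made of this difference.

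The 2 libraries of an animal mostly agreed on presence, though MSTRG.21591, with a median difference between regions of 2.11 on log2(CPM + 0.5), was uneven between them. A level below 0.2 CPM in one region and above 1 CPM in the other region of the same animal was found for 3 loci. MSTRG.19237 had 21.2 CPM in the main wing library of animal 6 and 0 CPM in its other library. MSTRG.6997 had 0 and 4.23 CPM in animal 6, 3.87 and 0 CPM in animal 7 and 0 and 4.04 CPM in animal 8 (main wing first). MSTRG.8530 had main wing levels of 1.29, 1.72, 0, 6.50 and 9.59 CPM in animals 6, 8, 13, 15 and 16, with 0, 0, 11.3, 0 and 0 CPM in the anterior hindwing. Such switches occurred in 0.922% of the other expressed loci.

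The spread between animals was also large on a continuous scale. On log2(CPM + 0.5), the SD between animals of the same stage had a median of 1.05 over the 75 loci, and of 0.304 over 5438 other expressed loci with means between 2.5 and 31 CPM. The median difference between the 2 regions of an animal was 0.280, against 0.230 in those other loci. In 41 of the 75 loci (54.7%) the SD between animals was above 1, compared with 4.91% of the others. The others were matched on level and not on gene models. A model was carried by 18.7% of the 75 and by 80.2% of all loci expressed in demophoon. The SD ran from 0.22 in MSTRG.5194 to 3.65 in MSTRG.14928, and 9 loci were below 0.4.

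Steady loci show the low end of this spread. MSTRG.10744 on chromosome 11, without a count in cyrbia, stood at 9.17, 11.3, 8.24 and 12.4 CPM in the main wing at 50% and at 5.00, 8.79, 8.65 and 10.6 CPM at 70%. Its anterior hindwing levels were 11.9, 14.3, 8.74 and 9.17 CPM, then 7.22, 10.7, 11.8 and 12.6 CPM. All 16 libraries were thus within 3-fold of each other and the stages overlapped. MSTRG.15921 on chromosome 16, also without a count in cyrbia, and MSTRG.5194 (novel_gene_29) on chromosome 3 were present in all 8 animals, with animal means of 3.70 to 8.18 CPM and 2.54 to 4.24 CPM.

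Loci at 0 in some animals were absent from different animals. MSTRG.6175 on chromosome 7 had main wing levels of 25.3, 0, 0 and 0.311 CPM at 50% and 0.550, 27.3, 51.8 and 0 CPM at 70%. The anterior hindwing gave 32.0, 0, 0 and 0.169 CPM, then 0.486, 32.4, 40.0 and 0.0989 CPM. It was high in animals 5, 14 and 15 and close to 0 in the other 5 animals, in both regions alike. MSTRG.19237, which could not be placed on a chromosome, had main wing levels of 0, 21.2, 29.7 and 0 CPM, then 0, 18.8, 25.0 and 0 CPM. The anterior hindwing gave 0, 0, 31.0 and 0 CPM, then 0, 16.6, 21.0 and 0 CPM, so that animals 7, 14 and 15 were high in both regions and animals 5, 8, 13 and 16 had no count. MSTRG.2355 (evm.TU.Herato0301.95, chromosome 3) had no count in either library of animals 5, 7 and 13. It lay between 2.33 and 6.14 CPM in the libraries of the other 5 animals.

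Other loci were raised in 1 or a few animals. MSTRG.21628 on the Z chromosome had main wing levels of 0.582, 1.50, 4.31 and 5.74 CPM at 50% and 52.0, 0.212, 0.275 and 14.0 CPM at 70%, with 73.5 CPM in the anterior hindwing of animal 13 and 16.2 CPM in that of animal 16. MSTRG.10044 (evm.TU.Herato1007.66, chromosome 10) averaged 34.5 CPM in animal 13 and at most 5.25 CPM in any other. MSTRG.17310 on chromosome 17 averaged 35.8 CPM in animal 15, against 0.0242, 0 and 0.0942 CPM in animals 8, 13 and 14. High levels were again found in both regions of the animal.

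**Figure D2:**
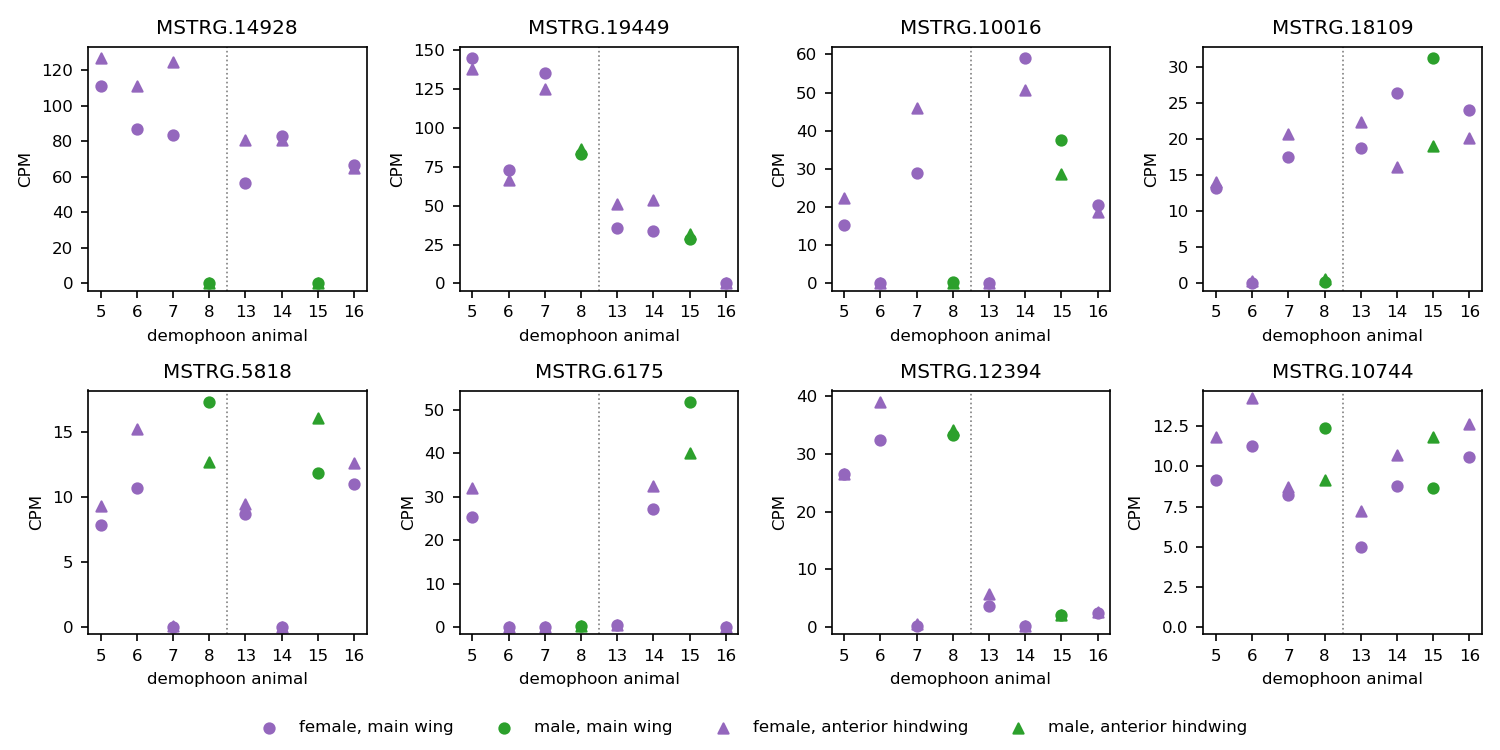
Level in CPM (linear axes from 0) of 8 of the loci in each demophoon animal, with the stages separated by the dotted line (50% left, 70% right), circles for main wing, triangles for anterior hindwing, purple for females and green for males. MSTRG.14928 is near 0 in both males, MSTRG.19449 in animal 16, MSTRG.10016 in animals 6, 8 and 13, MSTRG.5818 in animals 7 and 14, and MSTRG.10744 lies between 5.00 and 14.3 CPM in every library.

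MSTRG.14928 on chromosome 15 (evm.TU.Herato1505.25, evm.TU.Herato1505.26 and evm.TU.Herato1505.28) followed the recorded sex in demophoon. Main wing levels were 111, 87.2 and 83.9 CPM in females 5, 6 and 7, and 56.8, 82.9 and 66.5 CPM in females 13, 14 and 16. The males 8 and 15 had 0 and 0.0688 CPM there, from 0 and 4 counts. The anterior hindwing gave 127, 111, 125, 80.7, 80.6 and 65.1 CPM in the females in the same order and 0 and 0.215 CPM in the males. Females and males did not overlap in either region. In cyrbia both females had a count of 0 in all 4 libraries, and males reached at most 0.164 CPM. The sexes are those of the labels, and whether they are right in cyrbia was not tested. The next locus, MSTRG.14929 (evm.TU.Herato1505.27), ran from 3.94 to 10.8 CPM in the libraries of females and had 0, 0.0484, 0 and 0 CPM in those of males 8 and 15. The IDs of its gene model and of those of MSTRG.14928 interleave, so the counts of these loci may share reads. All cyrbia animals of the later stage were males, and both loci were near 0 in demophoon males too. At that stage their low level in cyrbia therefore cannot be told apart from the sex of the animals sampled. Females of the subspecies can be compared only at the earlier stage, where cyrbia females reached at most 0.228 CPM for MSTRG.14929.

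Sex was compared within the groups of subspecies and stage, over both subspecies, in the main wing. Of the 75 loci, 1 was differentially expressed (DE), the locus MSTRG.14928 (fitted log2 fold change −10.89 in males, SE 0.99, edgeR FDR 0.00418), whose size depends on the near-zero male counts. Over all loci tested 0.0129% of loci (2 of 15485) were lower in males at this threshold. At an unadjusted p below 0.05 there were 3 of the 75, and 2.74% of all loci. The call was lost in the anterior hindwing (edgeR FDR 0.979), with regions summed (1), with DESeq2 (adjusted p = 0.145) and without male 8 (edgeR FDR 0.0662), and only 2 demophoon males were sampled. Of the 75 loci, 49 were present in both demophoon males and 34 in all 6 females, and 73, all but this pair, were present in at least 1 male.

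The largest group with a shared profile held 22 loci. Profiles were compared over the 16 demophoon libraries on log2(CPM + 0.5), and loci were joined by average linkage at a Pearson correlation of 0.8. The sets were found in these values and are a description, since libraries of one animal share an individual and a depth. There were 12 sets of at least 2 loci, which held 48 of the 75, and 27 loci were in none. Across all pairs of the 75 the median correlation was 0.07, and within the 22 it was 0.95.

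The 22 loci were low in animals 6 and 8 and high in the other 6 animals. Their summed main wing level was 123, 12.1, 251 and 25.0 CPM in animals 5, 6, 7 and 8 at 50% and 182, 279.8, 283 and 194 CPM in animals 13, 14, 15 and 16 at 70%. In the anterior hindwing it was 122, 16.0, 237 and 28.9 CPM, then 224, 208, 171 and 182 CPM. All 22 had their lowest animal means in animals 6 and 8, as did 1 of the other 53 loci. The mean of animals 5 and 7 was 2.1 to 145 times that of animals 6 and 8, with a median of 8.12. Animal 6 is a female and animal 8 a male, and the other 53 loci summed to 582 and 433 CPM in them, within the range of 356 to 747 CPM over all demophoon animals. Without the libraries of animals 6 and 8 the median correlation within the set fell from 0.95 to 0.75.

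**Figure D3:**
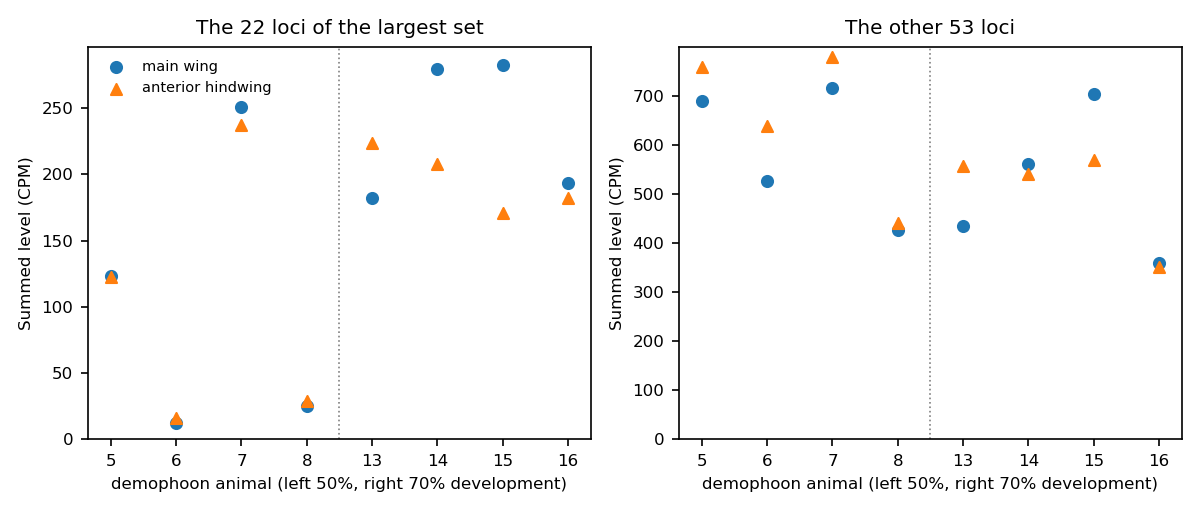
Summed level in CPM of the 22 loci of the largest set (left) and of the other 53 loci (right) in each demophoon animal, circles for main wing and triangles for anterior hindwing, with axes from 0. The 22 loci stand at 12.1 to 28.9 CPM in animals 6 and 8 and at 122 to 283 CPM in the other 6 animals.

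None of the 22 loci carried a gene model. They were MSTRG.18109, MSTRG.7224, MSTRG.3499, MSTRG.4931, MSTRG.20378, MSTRG.14371, MSTRG.12775, MSTRG.1348, MSTRG.15246, MSTRG.7189, MSTRG.21627, MSTRG.1175, MSTRG.9926, MSTRG.10151, MSTRG.22223, MSTRG.3131, MSTRG.3415, MSTRG.1921, MSTRG.20491, MSTRG.9055, MSTRG.7188 and MSTRG.16699, in order of level, and the 21 that could be placed lay on 13 chromosomes. The highest, MSTRG.18109 on chromosome 18, had main wing levels of 13.2, 0.107, 17.5 and 0.254 CPM at 50% and 18.8, 26.3, 31.2 and 24.0 CPM at 70%. Its anterior hindwing levels were 14.0, 0.319, 20.7 and 0.678 CPM, then 22.4, 16.2, 19.0 and 20.1 CPM. Animals 6 and 8 were thus in or near its cyrbia range of 0.0221 to 0.27 CPM. MSTRG.14371 on chromosome 14 and MSTRG.21627 on the Z chromosome had no count in animal 6, and MSTRG.12775 on chromosome 12 none in animal 8. MSTRG.3499 on chromosome 4 kept 1.31 and 4.28 CPM in animals 6 and 8, against 9.37 and 28.1 CPM in animals 5 and 7.

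The same profile was found in loci outside the 75. Of 9725 loci with a demophoon mean of at least 2 CPM, 43 correlated at 0.9 or more with the mean profile of the set, 21 of them members and 22 others. Of the 22 others, 16 had no gene model, 16 were at least 10-fold lower in cyrbia and 3 were higher in cyrbia. The cyrbia limit was exceeded by 17 of them, and 7 fell under the demophoon limit, 5 of these failing that limit alone. One of the 22 others was MSTRG.20200, a locus with a gene model on chromosome 19, with 86.3, 12.4, 139.9 and 16.1 CPM in animals 5, 6, 7 and 8, between 130.2 and 149 CPM in the animals at 70%, and 1.13 CPM in cyrbia.

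Smaller sets followed other animals. MSTRG.15509, MSTRG.16127, MSTRG.8765 and MSTRG.4289, on chromosomes 15, 16, 10 and 6, were highest in animal 15 (summed 95.0 CPM) and lowest in animal 14 (16.5 CPM). MSTRG.20249, MSTRG.7186 and MSTRG.10514, on chromosomes 19, 8 and 11, were likewise high in animals 7 and 15 (77.2 and 69.8 CPM) and lowest in animal 14 (14.0 CPM). MSTRG.13670, MSTRG.14869 and MSTRG.14870, on chromosomes 13 and 15, were highest in animal 7 (44.0 CPM) and lowest in animal 16 (7.04 CPM).

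One of the 8 sets of 2 loci was MSTRG.10016 and its neighbour MSTRG.10017 (evm.TU.Herato1007.47) on chromosome 10. MSTRG.10016 had main wing levels of 15.3, 0, 28.8 and 0.311 CPM at 50% and 0, 59.0, 37.5 and 20.6 CPM at 70%. The anterior hindwing gave 22.5, 0.239, 45.9 and 0.0726 CPM, then 0.0883, 50.6, 28.7 and 18.8 CPM. Animals 6, 8 and 13 were near 0 for both loci of the pair, and their 16 libraries correlated at 0.98. MSTRG.5818 on chromosome 6 and MSTRG.16138, which was not placed, were near 0 in animals 7 and 14. MSTRG.5818 had 7.84, 10.7, 0 and 17.3 CPM in the main wing at 50% and 8.68, 0, 11.8 and 11.0 CPM at 70%, with at most 0.0522 CPM in the anterior hindwing of animals 7 and 14 and at least 9.28 CPM in that of the other 6. Its correlation with MSTRG.16138 was 0.99. MSTRG.10208 and MSTRG.17401, on chromosomes 10 and 17, also correlated at 0.99 but were present in all animals, with sums from 2.70 CPM in animal 16 to 10.1 CPM in animal 6. The other sets of 2 were MSTRG.14928 and MSTRG.14929, MSTRG.6033 and MSTRG.10401, MSTRG.21525 and MSTRG.22314, MSTRG.4251 and MSTRG.7701, and MSTRG.6989 and MSTRG.7354.

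Of the 27 loci in no set, some were uneven in their presence, while others such as MSTRG.10744 and MSTRG.7826 were present in all 8 animals. Among the uneven ones, MSTRG.12394, MSTRG.14976, MSTRG.11860, MSTRG.21196 and MSTRG.10808 were each near 0 in 1 to 3 animals. MSTRG.14976 on chromosome 15 averaged 0.0603, 0.0764 and 0.0550 CPM in animals 5, 13 and 16, and 21.2 CPM in animal 6. MSTRG.21196 on chromosome 20 had no count in animal 6, with 0.0543 and 0.0649 CPM in animals 13 and 16 and 12.7 CPM in animal 8. MSTRG.4251 (evm.TU.Herato0601.12), of the sets of 2, had no count in animal 15 and averaged 0.0396 CPM in animal 16, while MSTRG.10808 (evm.TU.Herato1108.255) fell to 0.203 CPM in animal 15 and averaged 3.35 CPM or more in the other 7.

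The stage comparison asked whether these loci changed between 50% and 70% development in demophoon. In the main wing, 3 of the 75 were DE, 2 higher and 1 lower at 70%. Over all loci 28.1% of 15485 loci were DE, 15% higher and 13.1% lower, so the share among the 75 was below the background. At an unadjusted p below 0.05 there were 9 of the 75, and 37.5% of all loci. The standard error of an edgeR fold change was taken here as the absolute change over the square root of its F statistic. It had a median of 0.88 on the log2 scale over the 75, against 0.52 over all loci. It stands beside the wider spread between animals given above and is an approximate guide only. The floor of 2 CPM at both stages also kept out loci that were near 0 at either stage, so no locus switched on or off between stages could be among the 75. The stages were sampled from different animals.

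MSTRG.22314 on the Z chromosome, without a count in cyrbia, had main wing levels of 5.64, 4.82, 4.78 and 5.54 CPM at 50% and 6.52, 12.9, 14.7 and 6.98 CPM at 70%. Its means were 5.19 ± 0.46 and 10.3 ± 4.14 CPM (SD, n = 4), the stages did not overlap, and animals 14 and 15 were highest (log2 fold change 1.06, SE 0.32, edgeR FDR 0.0367). In the anterior hindwing it stood at 6.55, 8.03, 5.12 and 4.82 CPM, then at 7.51, 11.4, 9.69 and 5.46 CPM, with overlapping stages and a smaller change (log2 fold change 0.55, SE 0.31, edgeR FDR 0.271). The call was lost in 10 of 15 alternative fits.

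MSTRG.7189 on chromosome 8, one of the set of 22, had 1.88, 0.965, 4.99 and 1.78 CPM in the main wing at 50% and 6.14, 11.1, 11.9 and 10.3 CPM at 70%. The means were 2.40 ± 1.77 and 9.87 ± 2.57 CPM (SD, n = 4) without overlap of the stages (log2 fold change 2.12, SE 0.70, edgeR FDR 0.0344). Its anterior hindwing gave 3.55, 3.11, 5.38 and 1.67 CPM, then 10.2, 12.0, 10.2 and 9.16 CPM, also without overlap. The call was lost without animal 5, 6, 8, 13, 14, 15 or 16 (edgeR FDR 0.0520 to 0.0976).

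MSTRG.12394 on chromosome 12 was lower at 70%. In the main wing it had 26.6, 32.5, 0.125 and 33.3 CPM at 50% and 3.68, 0.121, 2.08 and 2.47 CPM at 70%, and in the anterior hindwing 26.6, 39.1, 0.522 and 34.1 CPM, then 5.72, 0.145, 2.01 and 2.59 CPM. The stages overlapped through animal 7, which was near 0, and animal 14 was near 0 as well. Main wing means were 23.1 ± 15.6 and 2.09 ± 1.48 CPM (SD, n = 4), with a log2 fold change of −3.32 (SE 1.19, edgeR FDR 0.0497). This call lay at the threshold and was lost in 11 of 15 alternative fits.

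**Figure D4:**
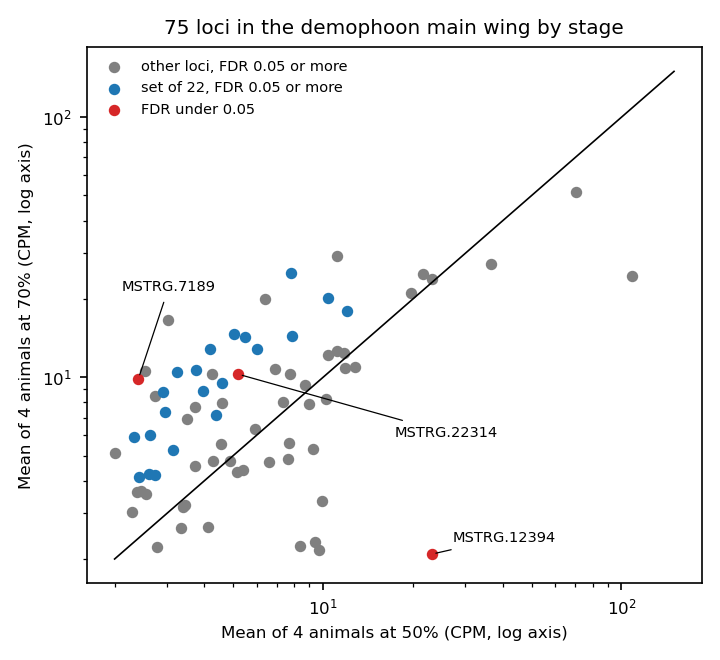
Mean main wing level of each of the 75 loci over the 4 demophoon animals at 50% (x axis) and at 70% development (y axis), in CPM on log axes, with the line of equal levels. The 3 loci at an FDR under 0.05 are red and the other loci of the set of 22 blue. All 22 lie above the line, with log2 fold changes of 0.70 to 2.12.

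The direction of the stage difference was not the same in all loci. Fitted changes were positive in 54 loci and negative in 21, with a median log2 fold change of 0.44, against 0.05 over all loci tested. The set of 22 gave 22 of the positive values (median 1.27), with 1 of them DE, and the low animals 6 and 8 are both in the group at 50%. Over the other 53 loci, 32 changes were positive and 21 negative, with a median of 0.12.

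Wing regions were compared within animals, since they differ in scale type. None of the 75 loci was DE between the main wing and the anterior hindwing of demophoon, either at 50% (0 of 75, background 0.0985% of 18276 loci) or at 70% (0 of 75, background 0.367%) by edgeR with the animal as a block. At an unadjusted p below 0.05 there were 2 and 1 of the 75, and DESeq2 called 1 at each stage. Fitted changes ran from −1.38 to 2.96 on the log2 scale at 50% and from −0.47 to 2.36 at 70%, with median standard errors of 0.36 and 0.34. The medians were −0.09 and 0.14, against −0.05 and 0.00 over all loci. No locus of the 75 was called for a change of the regional difference between stages (lowest edgeR FDR 0.253, 4 at an unadjusted p below 0.05).

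The loci were spread over the genome. Chromosomes were read from the scaffold in the gene model IDs, and loci without a model were placed between models by their locus number. Of the 75, 70 were placed, on 20 of 21 chromosomes, with 7 each on chromosomes 8, 10, 15 and Z, between 1 and 4 on 16 others and none on chromosome 5. As a share of loci expressed in demophoon these were 2.16%, 1.31%, 1.99% and 2.22% of chromosomes 8, 10, 15 and Z, against 0.846% over all placed loci. Their counts are too small for a comparison between chromosomes. The 5 loci that could not be placed were MSTRG.9055, MSTRG.16138, MSTRG.6997, MSTRG.19237 and MSTRG.10401.

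Of the loci on the Z chromosome and on chromosome 20, each is named. Those on the Z chromosome were MSTRG.21628, MSTRG.22314, MSTRG.21525, MSTRG.21627, MSTRG.22223, MSTRG.22112 and MSTRG.21591, all without a gene model. MSTRG.22112 was steady, with animal means of 3.39 to 6.95 CPM, whereas MSTRG.21591 differed between the regions of an animal in either direction. Its main wing levels were 0.526, 5.25, 0.624 and 7.57 CPM at 50% and 10.5, 13.9, 1.96 and 1.16 CPM at 70%. The anterior hindwing gave 6.42, 1.01, 0.835 and 1.45 CPM, then 1.97, 1.51, 19.9 and 1.52 CPM. On chromosome 20 they were MSTRG.21196, described above, and MSTRG.20378 and MSTRG.20491 of the set of 22, with animal means of 1.34 to 16.5 CPM and 0.907 to 6.55 CPM.

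Some of the loci stood beside loci that were expressed in both subspecies. Next to the 70 placed loci stood 128 other loci, 64 with a gene model, and 10 of the 70 stood beside another of the 75 (MSTRG.10016 and MSTRG.10017, MSTRG.14869 and MSTRG.14870, MSTRG.14928 and MSTRG.14929, MSTRG.21627 and MSTRG.21628, MSTRG.7188 and MSTRG.7189). In 4 of these 5 pairs both loci fell in the same set, while MSTRG.21627 and MSTRG.21628 did not. Among the 128 neighbours, 39 had at least 2 CPM in all 8 groups and 35 were below 0.2 CPM in all cyrbia groups, and none showed the opposite pattern. At 2 CPM or more in all cyrbia groups there were 40 of the 128, and 8046 of all 24118 loci. For all demophoon groups it was 45 of the 128, and 8319 of all loci. The neighbours were thus expressed about as often as loci at large, and no share over all loci was computed for the 39 and the 35. A neighbour at 2 CPM or more in all cyrbia groups was found beside 33 of the 70 loci. MSTRG.12394, for example, lay between MSTRG.12393, with means of 222 CPM in demophoon and 253 CPM in cyrbia, and MSTRG.12395, with 22.4 and 27.3 CPM. MSTRG.7826 lay between MSTRG.7825, with 19.7 and 24.7 CPM, and MSTRG.7827, with 6.46 and 4.34 CPM.

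The neighbours were compared between subspecies in the main wing, since the rule did not use them. Of the 79 neighbours with enough counts, 16 were DE at 50%, 15 lower and 1 higher in cyrbia, and 16 at 70%, again 15 lower and 1 higher. This was 20.3% of the neighbours at each stage. With sex as a term 10 neighbours (12.7%) were DE at 70%, against 4.48% of all loci in that fit. Over all 15485 loci 9.69% were DE at 50% and 9.17% at 70%, and 5.36% and 5.92% were lower in cyrbia, a background that includes the 75 themselves. The median log2 fold change of cyrbia over demophoon was −0.29 at 50% and −0.28 at 70% in the neighbours, against 0.08 and 0.00 over all loci. Among loci with a gene model 11.5% of 52 tested neighbours were DE at 50%, against 5.76% of all such loci, and among loci without one 37.0% of 27, against 15.5%. Both comparisons share the animals of a stage and the assembly of loci from reads, and an adjacent locus may be a fragment of the same transcript, which was not tested.

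**Figure D5:**
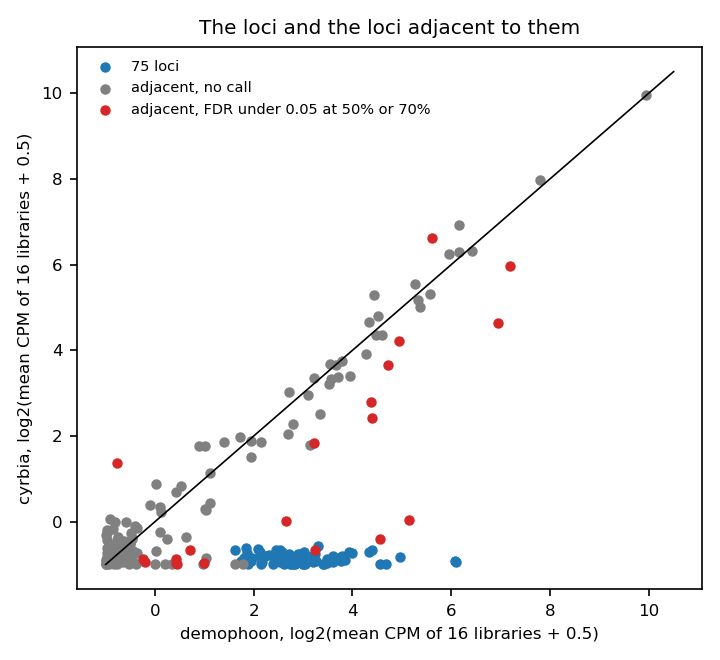
Mean over 16 libraries, on log2(CPM + 0.5), in demophoon (x axis) and cyrbia (y axis) for the 75 loci (blue) and the 128 loci adjacent to them (grey, or red where the edgeR FDR was under 0.05 at 50% or 70%), with the line of equal levels. The 75 loci lie along the bottom by their selection, and 18 of the 20 adjacent loci in red lie below the line.

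At both stages 12 neighbours were DE, all lower in cyrbia. MSTRG.15922, without a gene model and next to MSTRG.15921, averaged 23.0 CPM in demophoon and 0.254 CPM in cyrbia. MSTRG.21626, with a gene model and next to MSTRG.21627, averaged 34.8 and 0.532 CPM (log2 fold change −5.44, SE 1.15, edgeR FDR 0.00884 at 50%, and −6.38, SE 1.21, edgeR FDR 0.00495 at 70%). MSTRG.17584, with a gene model and next to MSTRG.17585, averaged 123 CPM in demophoon and 24.5 CPM in cyrbia (log2 fold change −2.25, SE 0.49, edgeR FDR 0.0104 at 50%, and −2.16, SE 0.49, edgeR FDR 0.0130 at 70%). There were exceptions in the other direction, given here as main wing means of the stage in demophoon and cyrbia. MSTRG.17309, next to MSTRG.17310, was higher in cyrbia at 50% (0.0315 and 4.13 CPM). MSTRG.10743, next to MSTRG.10744, was higher in cyrbia at 70% (35.2 and 92.5 CPM).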

How the data were processed

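Wing libraries (TruSeq v2) were trimmed with Trimmomatic 0.38, aligned with HISAT2 2.1.0 and handled with SAMtools 1.9, and the authors deposited raw counts per locus derived from StringTie 1.3.5, in 1 table of 24118 loci and 32 libraries, with versions from the submitters' processing notes. For the genome build, annotation version and strand setting, nothing was stated: not given in the sources used here. StringTie counts derive from transcript coverage, so overlapping loci can share reads. CPM is the count over the library total. The members and lists were chosen with earlier results of these data known.

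Counts were fitted with edgeR 4.0.16 (TMM factors, low-count filter filterByExpr, quasi-likelihood F test, Benjamini-Hochberg over all loci tested, two-sided, FDR threshold 0.05) in R 4.3.3. Stage, sex and subspecies used the 16 main wing libraries. Region used all 32 libraries with the animal as replicate block, since the labels give both regions of an animal the same number. The stage fit was tested on simulated data. DESeq2 1.42.0, other scalings, filters and left-out animals were alternatives. Each SE given with an edgeR result is the absolute log2 fold change over the square root of F. It is not a fitted standard error and is unreliable where counts or changes are very small. Animals are the replicates. For stage, sex and subspecies the p-values cover the spread between animals, estimated over both subspecies together. For region they cover the spread of the difference within animals.

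Loci were named by rule: the loci highest in level, with gene models, on the Z chromosome and on chromosome 20, those DE, those without counts in an animal, runs of adjacent loci, those at the limits, and neighbours. Other loci in sets, steady loci, region switches and MSTRG.20200 were chosen after their values were seen. No sequence was printed because none was given for these loci.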

Additional observations from a re-analysis of the deposited data

Results flagged for a closer look

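A library far from the other 3 of its group was looked for with Dixon's gap criterion in 84 groups, made of 19 named loci in the 4 demophoon groups and the summed level of the 75 loci in all 8 groups. It was met in 8 groups. Chance flags about 1 in 20 groups, but the loci were named in part for having no counts in an animal or for their levels, so the 8 are not to be read against that share. At 50% in the anterior hindwing these were MSTRG.14928 with 0 CPM in male 8 (nearest other library 111 CPM), MSTRG.13449 with 37.5 CPM in animal 6 (13.8 CPM), MSTRG.6175 with 32.0 CPM in animal 5 (0.169 CPM) and MSTRG.19237 with 31.0 CPM in animal 7 (0 CPM). At 50% in the main wing they were MSTRG.7826 with 34.0 CPM (20.8 CPM) and MSTRG.6175 with 25.3 CPM (0.311 CPM), both in animal 5. At 70% in the anterior hindwing they were MSTRG.7826 with 35.8 CPM in animal 15 (18.6 CPM) and the summed level of the 75 loci, with 532.8 CPM in animal 16 (739.6 CPM). No locus of the 75 differed in its regional change between stages (edgeR, 0 at FDR 0.05 and 4 at an unadjusted p below 0.05). Because many loci are near 0 in some animals, such gaps recur in these groups, and their cause was not tested.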

How the results depend on the processing

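The number of loci follows the limits. It was 43 with a cyrbia limit of 0.1 CPM, 132 with 0.5 CPM, 8 with a count of 0 in every cyrbia library, 145 with a demophoon limit of 1 CPM and 28 with 5 CPM. Group medians gave 68 loci, 54 of them among the 75, TMM-adjusted sizes 75 with 72 shared, both regions summed per animal 103, and leaving out 1 animal 66 to 79.

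The stage counts (2 higher and 1 lower at 70%) were small and unstable. Loci higher at 70% numbered 1 with no filter on low counts, 5 with DESeq2, 1 in the anterior hindwing and 1 with sex as a term, and 0 to 2 when 1 animal was left out (0 without animal 5, 6, 8, 14 or 15, 1 without animal 13 or 16). Loci lower at 70% numbered 0 with RLE factors, no filter, only demophoon libraries or sex as a term, 2 in the anterior hindwing, and 0 to 1 with 1 animal left out (0 without animal 5, 6, 8, 13 or 15). MSTRG.22314 kept its call in 5 of 15 alternatives (edgeR or DESeq2 adjusted p 0.0027 to 0.271), MSTRG.7189 in 8 and MSTRG.12394 in 4, and no direction turned.

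For region, DESeq2 called 1 locus at 50% and 1 at 70%, and 0 to 1 were called at 50% with 1 animal left out (1 without animal 7). Without the paired design, that is with no replicate block, 0 were called at either stage. For sex, 2 loci were called with only demophoon libraries, 0 in the anterior hindwing or with regions summed, and 0 to 1 with 1 animal left out (0 without animal 8). Neighbours DE between subspecies (16 at each stage) numbered 29 and 27 with 2 loci on each side, 6 and 7 with gene models only, and 10 at 70% with sex as a term. The causes were not tested. The 4 animals per group, and 3 counts equalling 0.0435 to 0.322 CPM in demophoon, limit what can be called absent.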
